A study of Mus musculus with 8 samples.

Results

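Npas4 and 9 other rapid-response regulators (Klf2, Klf4, Klf10, Ier2, Ier5, Csrnp1, Maff, Btg2 and Trib1) were followed in the ribosome-associated mRNA of PV+ interneurons after chemogenetic activation. The genes were chosen by name, as inducible regulators outside the Fos, Jun, Egr and Nr4a families, with earlier results of these data known. They were 10 of the 45706 genes in the deposited tables. All 10 were among the 17495 genes that passed the filter on low counts. None of the 10 differed between CNO and vehicle after adjustment over all tested genes. Trib1, Maff and Csrnp1 were higher in each of the 4 CNO samples than in the highest vehicle sample on the scale of normalized counts (for Trib1 not on the TPM scale), while Npas4 spread more among the samples of 1 group than between the group means.

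The mice carried PvalbFlp/+;Neurod6Cre/+ and received an AAV with a floxed, Flp-dependent (fdio) cassette for HA-RPL10a and myc-hM3Dq in the primary somatosensory cortex (S1) on postnatal day 1. That day is from the description of the series, and the study's methods give a range of days that begins with it. Flp recombinase in PV+ cells inverted the cassette, so that the human synapsin promoter drove RPL10a, a ribosomal protein tagged with HA for the pulldown of ribosomes with their mRNA, together with hM3Dq, a Gq-coupled receptor that responds to the drug clozapine-N-oxide (CNO). Cre from Neurod6, a gene of cortical pyramidal cells, removed the construct from those cells, in which PV can be expressed transiently. At postnatal day 42 to 70 the mice were given 5 injections over about 48 h, of CNO at 1 mg/kg (4 samples) or of vehicle (4 samples), the last on the morning of the experiment. Both groups carried the virus, the receptor and both recombinases, so that by the labels the groups differed in the drug alone, and no group received CNO without the receptor. Each sample pooled tissue from 4 brains, and its value is an average over infected cells of those brains. In such bulk samples, fewer cells of a type and less RNA per cell cannot be told apart.

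Between 44064161 and 49413273 counts were assigned to genes in each sample, and 3 counts, taken as the limit of detection, corresponded to 0.0607 to 0.0681 on the scale of CPM (counts scaled to the library total) before TMM normalization for composition, which all CPM of genes given here include; this limit covers counting error only. All 12 genes of the PV interneuron marker list were detected, led by Gad1, the GABA-synthesizing enzyme, and Pvalb, parvalbumin itself. Their summed level lay between 1245 and 3284 TPM (a unit scaled to the library total and corrected for transcript length) in vehicle and between 2657 and 4125 in CNO samples, with vehicle 1 the lowest. No marker of any of the 7 cell type lists was at 0, and the pyramidal cell list, led by Nrgn and Slc17a7, still summed to 1417 to 2293 TPM over the 8 samples, so markers of other cells were present in the pulldown. Of the PV interneuron markers, 12 of 12 had a positive log2 fold change of CNO against vehicle (median 0.43, and 0.21 without vehicle 1), whereas 11 of 12 pyramidal cell markers (median -0.15), 8 of 8 microglial (-0.18), 8 of 8 oligodendrocyte (-0.22), 5 of 7 astrocyte (-0.15) and 5 of 8 other interneuron markers (-0.10) had a negative one. No marker was called. No list differed by exact permutation (p from 0.171 to 0.714 before and from 0.400 to 0.714 after adjustment over the 7 lists). With 4 samples against 4, 1 list alone could not pass after this adjustment, whatever its difference.

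Rapid-response genes are transcribed within minutes of a stimulus from factors that are already present in the cell, such as CREB, SRF and MEF2, and need no new protein for their induction. Their products include transcription factors, which pass the signal on to a later wave of genes, and short-lived proteins that limit signalling or shorten the life of mRNAs. In neurons, calcium entry is the main trigger, and NPAS4 is known for responding to calcium far more selectively than to growth factors or cyclic AMP and for adjusting inhibitory synapses. The mRNAs are as a rule unstable, so their level reflects the last part of a stimulus.

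Promoter sequence was searched because CREB, the calcium-responsive factor of many such genes, binds the palindrome TGACGTCA or its single arm TGACG. RefSeq windows on GRCm38.p6 were found for 7 of the 10 genes (none for Klf10, Ier2 or Trib1), and the 250 bases before the RefSeq start nearest to the GENCODE start were read on both strands, so that each palindrome also holds 2 matches to the arm. Shown are the windows of Npas4 and Btg2, which held 2 arms each, and those of Csrnp1, with 1, and Maff, with none in that window, the last 2 being genes whose groups did not overlap. Capitals mark matches to the arm or palindrome, and CGTCA is the arm on the opposite strand.
Npas4, chr19:4990129-4990158, minus strand, 30 bases around its 2 arms: ccgttcgaCGTCAcgggaTGACGtcggaag
Btg2, chr1:134079156-134079405, minus strand: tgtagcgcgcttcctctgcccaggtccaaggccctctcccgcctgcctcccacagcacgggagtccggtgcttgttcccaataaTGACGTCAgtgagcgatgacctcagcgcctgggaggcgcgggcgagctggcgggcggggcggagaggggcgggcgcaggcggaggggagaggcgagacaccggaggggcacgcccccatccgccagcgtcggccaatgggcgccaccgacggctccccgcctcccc
Csrnp1, chr9:119984743-119984992, minus strand: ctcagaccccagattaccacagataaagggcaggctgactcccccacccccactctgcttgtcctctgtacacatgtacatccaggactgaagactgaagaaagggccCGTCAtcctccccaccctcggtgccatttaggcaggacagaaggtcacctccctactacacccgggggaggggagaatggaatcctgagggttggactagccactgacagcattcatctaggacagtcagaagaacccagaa
Maff, chr15:79346371-79346620, plus strand: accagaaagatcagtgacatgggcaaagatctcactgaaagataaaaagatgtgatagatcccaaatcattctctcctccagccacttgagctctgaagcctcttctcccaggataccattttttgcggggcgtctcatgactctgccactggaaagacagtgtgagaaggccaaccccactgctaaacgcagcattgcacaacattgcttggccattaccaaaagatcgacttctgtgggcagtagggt

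The arm TGACG was found in 5 of the 7 windows (Npas4, Klf2, Klf4, Csrnp1 and Btg2), against 17.8% of all 32851 windows of the same length. The 2 arms of Npas4 lay at positions -179 and -169 from the RefSeq start, facing in opposite directions. The gene model of GENCODE release M21 begins at 4990316, upstream of that start and of both arms. By that model the arms lie within the gene. The full palindrome was found in Btg2, at position -166 (1.55% of all windows). RefSeq gives other starts for Csrnp1 (4 windows in all) and Maff (3 in all), and these counts depend on the choice: the 3 other windows of Csrnp1 held 1 to 2 arms, and those of Maff held 1 arm in one and the palindrome in the other, chr15:79347270-79347569 as listed. Klf4 had the E-box CACGTG at position -182 (6.02% of all windows). None of the 7 windows read held TATAAA (12.4% of all windows), the AP-1 motif TGANTCA (6.75%) or a CArG box, the SRF motif (1.47%). A match gives letters in a window and not a bound site, and no gene was sorted by it in the comparisons.

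In vehicle samples, the levels per length of the 10 genes covered a wide range. Ier5 was highest at 57.3 TPM, followed by Ier2 at 31.8, Btg2 at 22.7, Klf10 at 18.8, Npas4 at 7.27, Trib1 at 7.13, Klf2 at 5.97, Csrnp1 at 2.80, Klf4 at 0.674 and Maff at 0.525. The vehicle samples overlapped between Btg2 and Klf10, between Npas4 and Trib1, between Trib1 and Klf2 and between Klf4 and Maff, so these neighbours could not be ordered, while the other 5 steps of the order had no overlap. Among the 15173 genes with a mean above 1 TPM over all 8 samples, Ier5 ranked 3497 and Npas4 10426. Klf4 and Maff stayed under 1 TPM on average (0.840 and 0.695 over the 8 samples), below the level that the criteria for a called change require.

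**Figure D1:**
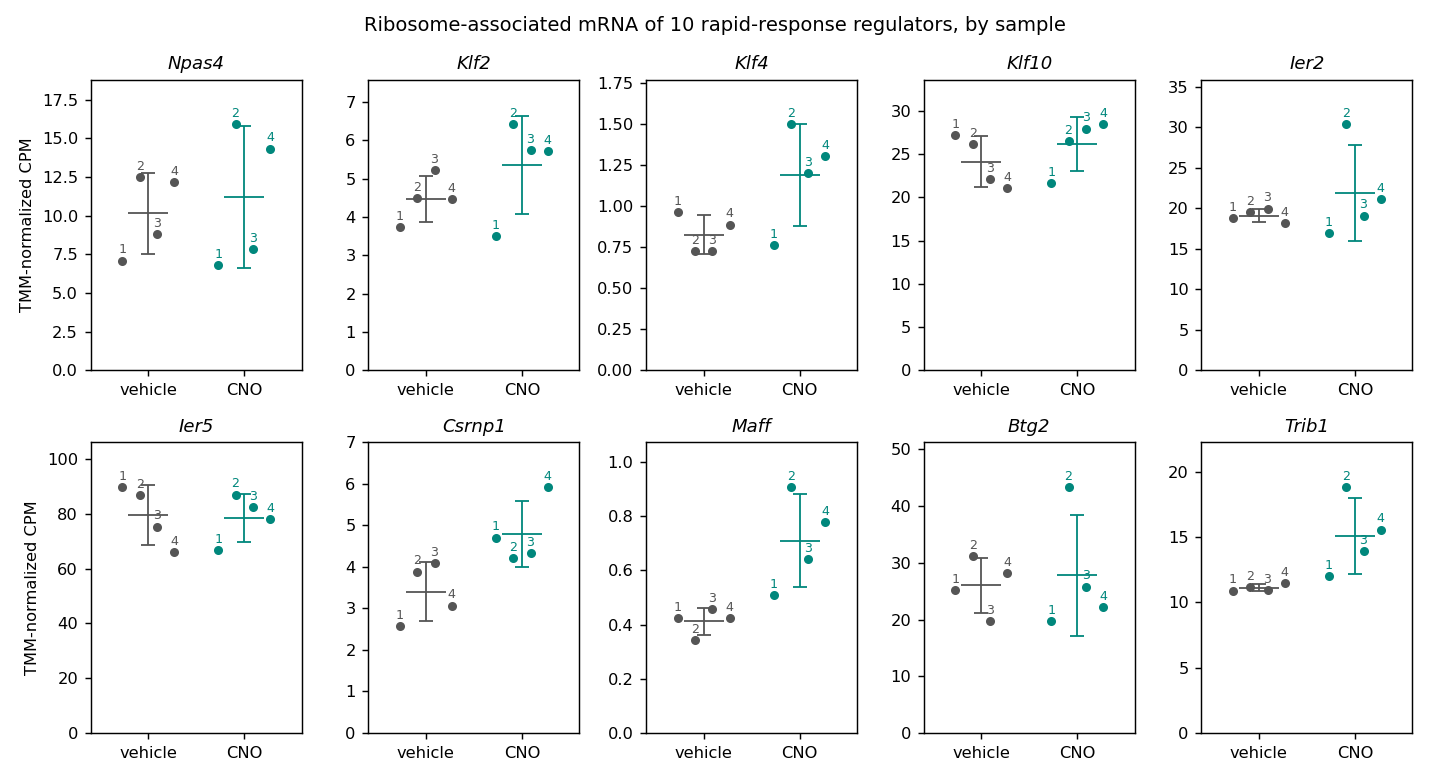
TMM-normalized CPM of each of the 10 genes (y axis, from 0, own scale per gene) in the 4 vehicle and 4 CNO samples, with replicate numbers beside the points and bars for the mean and SD. The CNO points of Csrnp1, Maff and Trib1 lie above all vehicle points, and in the CNO group sample 1 is lowest for 9 genes.

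The first question was whether NPAS4, the neuron-specific transcription factor of the set, was higher in the translated mRNA of activated PV+ interneurons. Npas4 (ENSMUSG00000045903, chr19:4984355-4990316 on GRCm38, minus strand) stood at 7.09, 12.5, 8.81 and 12.2 CPM in vehicle samples 1 to 4 and at 6.78, 15.9, 7.82 and 14.3 CPM in CNO samples 1 to 4. Samples 2 and 4 were high and samples 1 and 3 low in each group, and the groups overlapped. The mean was 10.1 ± 2.63 CPM in vehicle and 11.2 ± 4.59 in CNO (SD, n = 4 each). The log2 fold change was 0.15 (SE 0.28, 95% confidence interval -0.48 to 0.77), with an adjusted p of 0.894 by edgeR's quasi-likelihood test and p = 0.743 by two-sided exact permutation. The interval runs from a ratio of 0.717 to a 1.71-fold higher level. Counts of 317 to 754 lay behind each value, well above the detection limit. Leaving out CNO 2 took the log2 fold change to -0.07 and leaving out CNO 1 to 0.32.

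NPAS4 acts as a dimer with ARNT-family proteins and drives genes such as Bdnf, Nptx2, Plk2 and Mdm2. None of these 7 genes passed the test. Among the partners, the log2 fold change was -0.11 for Arnt (SE 0.11), 0.22 for Arnt2 (SE 0.17) and -0.23 for Arntl (SE 0.11, unadjusted p = 0.0649, adjusted p = 0.817). Among the targets it was -0.25 for Bdnf (SE 0.13, unadjusted p = 0.0782), 0.09 for Nptx2, -0.10 for Plk2 and 0.10 for Mdm2. The related neuronal factors Npas1, Npas2 and Npas3 had log2 fold changes of -0.25, -0.07 and -0.04, none past the test.

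Profiles over the 8 samples were compared by the root mean square difference in log2 CPM after subtraction of each gene's own mean. Among 15165 other genes above 1 TPM, those nearest to Npas4 were Lyz2 (0.220), RP23-218L17.3 (0.238), Ccdc102a (0.245), Gm20481 (0.249) and Klc3 (0.254), against a root mean square of 0.448 for Npas4 about its own mean. All 5 had groups that overlapped and log2 fold changes from -0.09 to 0.37. Of the other regulators, Ier2 was nearest (0.333), followed by Klf2 (0.344), Btg2 (0.349) and Trib1 (0.361), and Csrnp1 was farthest (0.478). By rank among the compared genes, Ier2 stood at 70 and Csrnp1 at 6271. Ier5 (0.452), Maff (0.476) and Csrnp1 lay farther from Npas4 than a gene without variation would, at 0.448.

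The 3 Krüppel-like factors of the set bind GC-rich promoter elements; KLF2 and KLF4 are best known from vascular endothelium, and KLF10 as a gene induced by TGF-β. Klf2 (chr8:72319033-72321656, plus strand) stood at 3.73, 4.48, 5.21 and 4.46 CPM in vehicle and 3.498, 6.42, 5.74 and 5.72 CPM in CNO samples. In 3 CNO samples it was above every vehicle sample and in CNO 1 below all of them. The log2 fold change was 0.26 (SE 0.20, interval -0.17 to 0.69, adjusted p = 0.817). Klf4 (chr4:55527143-55532466, minus strand) stood at 0.962, 0.726, 0.727 and 0.888 CPM in vehicle and 0.763, 1.5002, 1.199 and 1.30 CPM in CNO, from 34 to 71 counts. Again CNO 2, 3 and 4 lay above all vehicle samples and CNO 1 within them. Its log2 fold change of 0.53 (SE 0.26, interval -0.04 to 1.10) had an unadjusted p of 0.0647 and an adjusted p of 0.817.

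Markers of endothelial and mural cells, led by Ly6c1 and Vtn, are given beside these 2 genes. The list's mean log2 CPM was 2.86, 3.06, 3.67 and 3.43 in vehicle and 2.42, 3.79, 4.05 and 3.48 in CNO samples, so that CNO 1 was the lowest of all 8, as for Klf2. Klf4 did not follow the list in the vehicle group, where it was highest in sample 1 and the list was lowest there, and no test of their relation was made. The summed level of the list ranged from 130 to 194 TPM in vehicle and from 88.0 to 244 TPM in CNO, and 11 of its 12 genes had a positive log2 fold change (median 0.26), none past the test. That median was 0.47 without CNO 1, with 7 of the 12 genes at an unadjusted p under 0.05, and 0.0866 without CNO 3. With the list's level as a covariate, the log2 fold change was 0.14 for Klf2 (SE 0.14) and 0.44 for Klf4 (SE 0.25). Klf10 (chr15:38291463-38300706, minus strand), expressed at a higher level, stood at 27.2, 26.2, 22.1 and 21.1 CPM in vehicle and 21.7, 26.5, 27.9 and 28.5 CPM in CNO. The groups overlapped, with a log2 fold change of 0.11 (SE 0.12, interval -0.15 to 0.38, adjusted p = 0.822).

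IER2 and IER5 are small nuclear proteins from single-exon genes, and IER5 is known as a partner of the heat shock factor HSF1. Ier2 (chr8:84661331-84662852, minus strand) stood at 18.8, 19.5, 19.96 and 18.1 CPM in vehicle and 17.0, 30.4, 19.1 and 21.1 CPM in CNO. The vehicle samples lay close together, and CNO 2 alone stood far above them. The log2 fold change of 0.20 (SE 0.16, adjusted p = 0.817) came to -0.0038 without CNO 2. Ier5 (chr1:155096361-155099636, minus strand), the most abundant gene of the set, stood at 90.0, 86.8, 75.4 and 66.0 CPM in vehicle and 66.8, 87.1, 82.5 and 78.2 CPM in CNO. All CNO samples lay within the vehicle range. Its log2 fold change was -0.02 (SE 0.12, interval -0.29 to 0.25, adjusted p = 0.975), the single negative value of the set. Hsf1 had a log2 fold change of 0.10 (SE 0.10).

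CSRNP1 and MAFF are nuclear proteins as well: CSRNP1 is a transcription factor rich in cysteine and serine, first described as induced by AXIN1, and MAFF is a small MAF protein that lacks an activation domain and binds DNA with partners such as NRF2 or BACH1. Csrnp1 (ENSMUSG00000032515, chr9:119971163-119984658, minus strand) stood at 2.57, 3.89, 4.09 and 3.07 CPM in vehicle and 4.71, 4.20, 4.33 and 5.93 CPM in CNO. All CNO samples lay above all vehicle samples, although CNO 2 exceeded vehicle 3 by a small margin. The mean was 3.40 ± 0.710 CPM in vehicle and 4.79 ± 0.789 in CNO (SD, n = 4 each). The log2 fold change was 0.49 (SE 0.19, interval 0.08 to 0.91, unadjusted p = 0.0241, adjusted p = 0.817), and the exact permutation p of 0.0286 is the smallest that 4 samples against 4 allow. With the difference between the PV interneuron and pyramidal cell marker lists as a covariate, the log2 fold change was 0.28 (SE 0.16, unadjusted p = 0.122). Vehicle 1, the sample with the lowest PV marker level, was also the lowest for Csrnp1. The gene overlaps Cx3cr1, a microglial gene on the same strand, and the antisense gene 1700019L13Rik, with which it shares 4.10% of its 31-base sequences. Cx3cr1 itself had a log2 fold change of -0.19 (SE 0.18).

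Maff (ENSMUSG00000042622, chr15:79346621-79359076, plus strand) was the least abundant gene, with 19, 16, 22 and 21 counts in vehicle and 24, 43, 30 and 37 counts in CNO samples. On the CPM scale it stood at 0.425, 0.342, 0.457 and 0.424 in vehicle and at 0.509, 0.909, 0.642 and 0.778 in CNO, again without overlap and with CNO 1 nearest to vehicle. The log2 fold change of 0.78 (SE 0.27, interval 0.17 to 1.39) was the largest of the set and corresponded to a 1.72-fold higher level (interval 1.13 to 2.62). It had an unadjusted p of 0.0159, an adjusted p of 0.817 and an exact permutation p of 0.0286. Of its partners, Bach1 had a log2 fold change of 0.53 (SE 0.24, unadjusted p = 0.0510, adjusted p = 0.817), with 3 of 4 CNO samples above all vehicle samples, whereas Nfe2l2, which encodes NRF2, had -0.12 (SE 0.24). The related small MAF genes Mafg and Mafk had log2 fold changes of 0.01 and -0.02.

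BTG2 is an antiproliferative adaptor that brings the CCR4-NOT deadenylase to mRNAs, and TRIB1 is a pseudokinase that leads C/EBP factors to degradation by the ubiquitin ligase COP1. Btg2 (chr1:134075170-134079120, minus strand) stood at 25.2, 31.1, 19.7 and 28.2 CPM in vehicle and 19.8, 43.4, 25.8 and 22.3 CPM in CNO. The highest of the 8 values was in CNO 2, and the other 3 CNO samples lay within the vehicle range. Its log2 fold change of 0.09 (SE 0.23, interval -0.42 to 0.61, adjusted p = 0.914) was -0.20 without CNO 2.

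Trib1 (ENSMUSG00000032501, chr15:59648350-59657099, plus strand) stood at 10.9, 11.2, 10.9 and 11.5 CPM in vehicle and at 11.998, 18.9, 14.0 and 15.6 CPM in CNO. Vehicle samples hardly differed and every CNO sample lay above them. The mean was 11.1 ± 0.254 CPM in vehicle and 15.1 ± 2.91 in CNO (SD, n = 4 each). The log2 fold change of 0.44 (SE 0.13, interval 0.15 to 0.74) was equal to a 1.36-fold higher level and had the smallest p of the set, 0.00746 before and 0.817 after adjustment (exact permutation p = 0.0286). On the TPM scale the separation was not complete, since CNO 1 at 7.12 TPM lay below 3 of the 4 vehicle samples, the highest of which stood at 7.39 TPM, and limma on log2(TPM + 1) gave a difference of 0.30 (SE 0.15, unadjusted p = 0.0763). Counts of 488 to 893 lay behind each value. The genes of TRIB1's partners had log2 fold changes of -0.03 for Rfwd2, which encodes COP1, and -0.06 for both Cebpa and Cebpb.

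**Figure D2:**
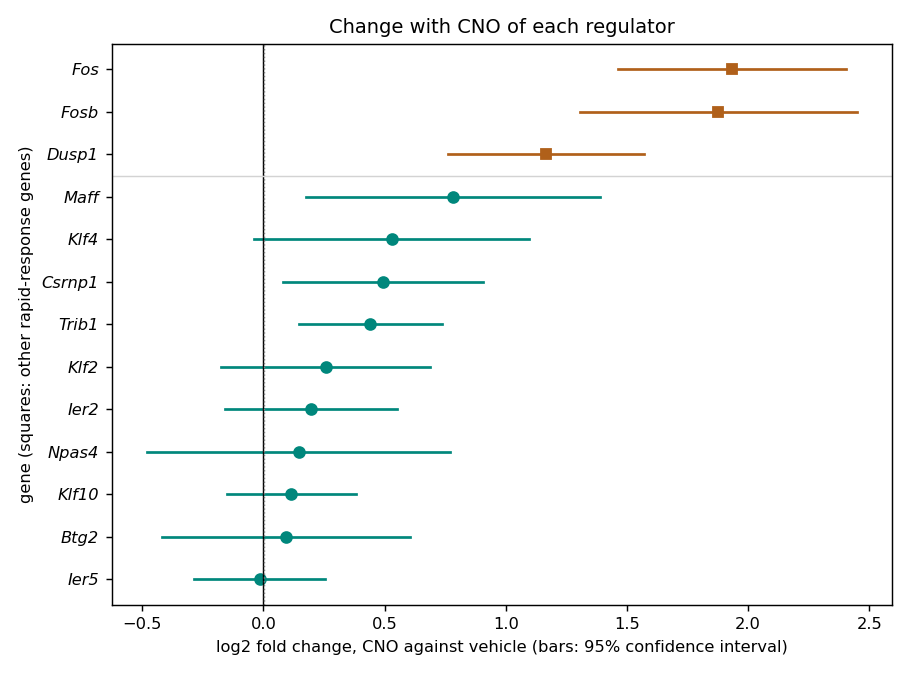
Log2 fold change of CNO against vehicle (x axis, linear in log2) for the 10 regulators (circles) and for Fos, Fosb and Dusp1 (squares), with 95% confidence intervals from edgeR's quasi-likelihood fit; the solid line is 0 and the dotted line beside it the median of all genes. The intervals of Maff, Csrnp1 and Trib1 lie above 0, and those of the other 7 regulators include it.

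Counted together, 9 of the 10 genes had a positive log2 fold change (50.4% of all tested genes did) and the median was 0.23, beside 0.0014 over all tested genes. Without CNO 2 the median was 0.13 and 6 of the 10 values were positive, and without CNO 1 it was 0.37 with 10 positive. On log2(TPM + 1) it was 0.11 with 8 positive, where the median of all tested genes was -0.06 instead of 0.0014. The PV interneuron markers had a higher median (0.43, with 12 of 12 positive), with the marker index as covariate the median of the 10 genes was 0.27, and the part of the PV+ cell content in it was not tested further. An unadjusted p under 0.05 was reached by 3 genes, all higher with CNO (1.44% of all tested genes in that direction, 4.09% in either). The groups did not overlap, with CNO higher, for the same 3 genes (0.789% of all tested genes). After adjustment 0 of the 10 genes and 0 of the 17495 genes tested were called (0%), and the smallest adjusted p of any gene was 0.0520. The likelihood ratio test with robust dispersion called 12 genes (0.0686% of those tested) and none of the 10.

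The lowest and the highest CNO sample were shared by most of the 10 genes. CNO 1 was the lowest CNO sample for 9 of them, all but Csrnp1, whereas it was the lowest for 17.9% of all tested genes. CNO 2 was the highest CNO sample for 8 of them, all but Klf10 and Csrnp1, against 30.3% of all tested genes. The median of the 10 genes relative to the vehicle mean was -0.16 in CNO 1, 0.68 in CNO 2, 0.27 in CNO 3 and 0.42 in CNO 4 on the log2 scale. In vehicle samples the medians ran from -0.04 to 0.08. The coefficient of variation had a median over the 10 genes of 24.1% in CNO and 13.7% in vehicle, beside 14.4% and 15.5% over all tested genes. It reached 40.9% for Npas4 and 38.5% for Btg2 in CNO, while Trib1 in vehicle varied by 2.29%.

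The markers of PV+ interneurons had another pattern. Their list was high in CNO 1 (mean log2 CPM 7.09) and lowest of the CNO samples in CNO 2 (6.47). Fos, a standard readout of neuronal activity, stood at 32.2, 54.4, 40.3 and 69.5 CPM in CNO samples 1 to 4, lowest in CNO 1 and highest in CNO 4, and at 11.3 to 15.8 CPM in vehicle. The endothelial and mural list was lowest in CNO 1 and highest in CNO 3, and the microglia and oligodendrocyte lists were highest in CNO 2 among the CNO samples, at 120 and 1071 TPM in sum (78.3 to 91.1 and 598 to 826 in the other 3). The astrocyte list had its highest CNO sum in CNO 2 as well, 553 TPM against 469 to 511. So did the pyramidal cell list, with 1958 TPM against 1417 to 1703. The part of these other cells in the values of the 10 genes was not tested beyond the covariate fits given above, in which Trib1 had a log2 fold change of 0.39 (unadjusted p = 0.0122) and Maff of 0.71 (unadjusted p = 0.0260) beside the endothelial and mural list.

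**Figure D3:**
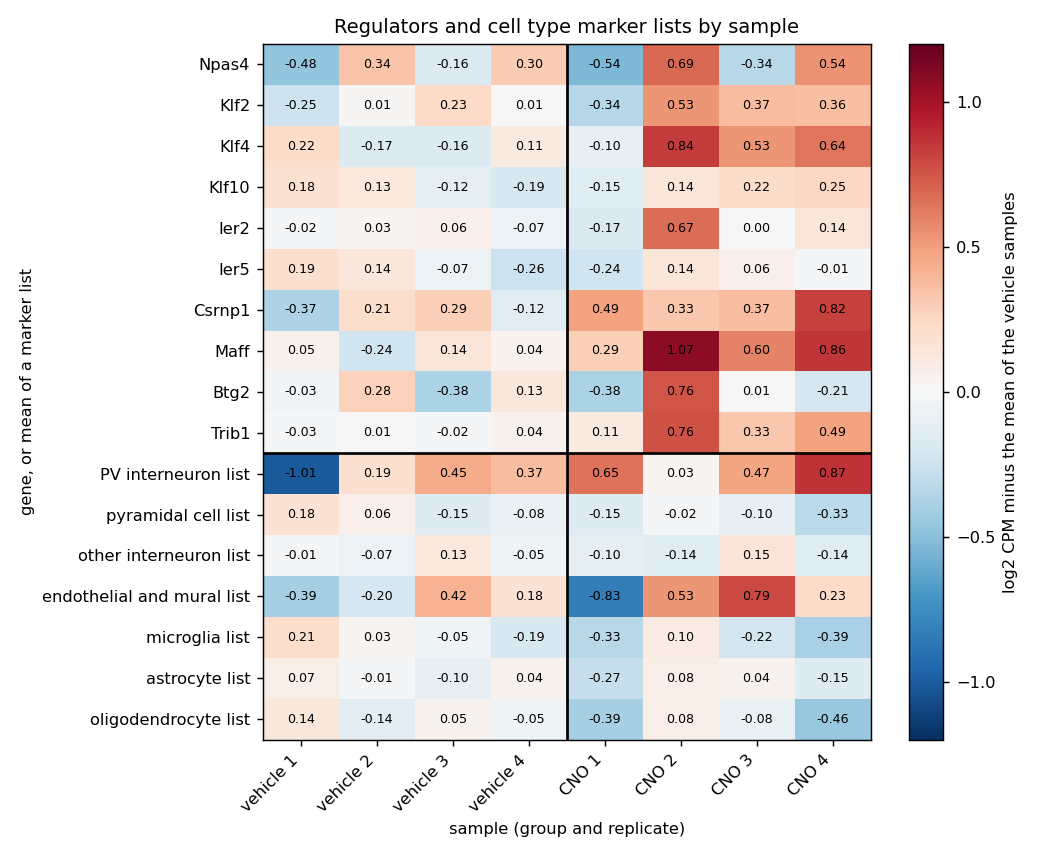
Log2 CPM of the 10 regulators (upper rows) and mean log2 CPM of 7 cell type marker lists (lower rows) in each of the 8 samples, minus the mean of the 4 vehicle samples; the colour scale runs from blue (lower) to red (higher), and each cell prints its value. CNO 2 is the reddest column for most regulators, CNO 1 is blue for Npas4 at -0.54 and for Klf2 at -0.34, and vehicle 1 stands out for the PV interneuron list at -1.01.

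Related genes were counted for comparison, in lists of relatives, partners and targets, other rapid-response genes and upstream regulators. Among 35 other rapid-response genes, 25 had a positive and 10 a negative log2 fold change, 8 had an unadjusted p under 0.05, all of them higher with CNO, and 6 had groups that did not overlap. Their median was 0.23, but 0.13 without CNO 4 and 0.15 without vehicle 4. With the marker index as covariate it was 0.15, and on log2(TPM + 1) it was 0.11. In these settings, in the same order, the median of the 10 regulators was 0.22, 0.25, 0.27 and 0.11. Fos, a subunit of the AP-1 dimer, had a log2 fold change of 1.93 (SE 0.21, adjusted p = 0.0520), Fosb of 1.88 (SE 0.26, adjusted p = 0.123) and Dusp1, a phosphatase of MAP kinases, of 1.17 (SE 0.18, adjusted p = 0.239). Atf3, added here for its size after its value was seen, had 1.75 (SE 0.40, adjusted p = 0.817) at under 1 TPM. The interval of Npas4, which ends at 0.77, did not reach that of Fos, which begins at 1.46, but the difference between the genes was not tested. Neither list held a gene called after adjustment.

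The relatives of the 10 genes (29 of 30 tested) were balanced, with 14 positive and 15 negative log2 fold changes and a median of -0.01, and 3 had an unadjusted p under 0.05. Klf15, a glucocorticoid-responsive Krüppel-like factor, had a log2 fold change of 0.33 (SE 0.11, unadjusted p = 0.0139, adjusted p = 0.817) without overlap between groups. Btg1, the closest relative of Btg2, had 0.22 (SE 0.08, unadjusted p = 0.0151, adjusted p = 0.817), also without overlap. Trib2, the sister gene of Trib1, had -0.27 (SE 0.12, unadjusted p = 0.0364, adjusted p = 0.817) with overlapping groups, opposite in sign to Trib1. Of the 11 other Krüppel-like factors tested, 4 had a positive and 7 a negative value, while Klf2, Klf4 and Klf10 all had a positive one. The 17 partners and targets had 7 positive and 10 negative values and a median of -0.03, with 0 at an unadjusted p under 0.05.

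The 17 upstream regulators, which include CREB, SRF, MEF2 factors and their kinases and coactivators, had 6 positive and 11 negative values and a median of -0.03, with 0 at an unadjusted p under 0.05. The smallest p values belonged to Ep300, a histone acetyltransferase, at -0.18 (SE 0.10, unadjusted p = 0.0981), to Mapk7, which encodes the kinase ERK5, at -0.22 (SE 0.15, unadjusted p = 0.163), and to Camk4, a calcium-dependent kinase of CREB, at -0.17 (SE 0.12, unadjusted p = 0.176), all with an adjusted p of 0.817. These values are mRNA levels, and the activity of such factors is set largely by phosphorylation, which was not measured.

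**Figure D4:**
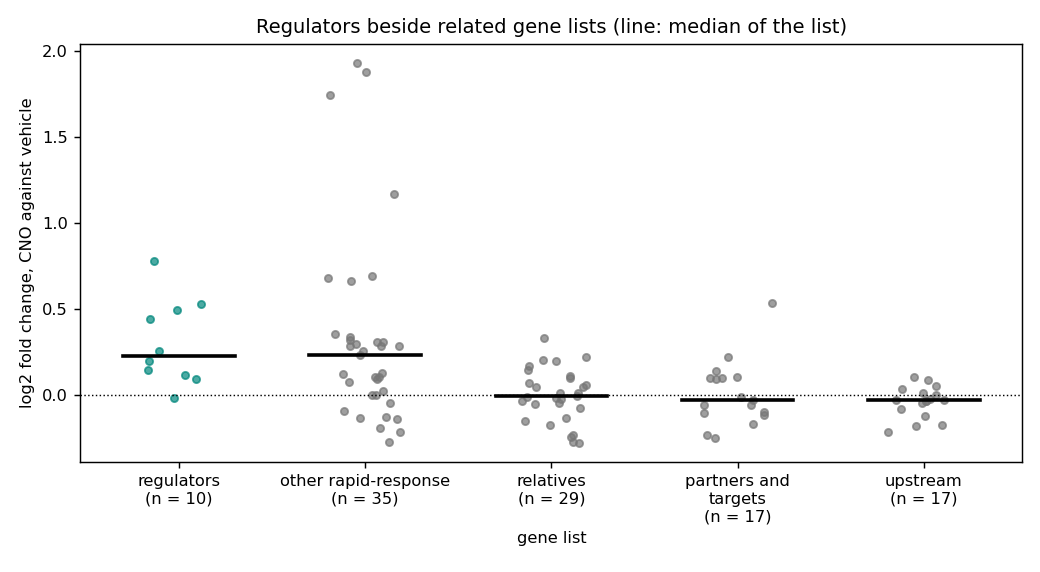
Log2 fold change of CNO against vehicle (y axis) for each tested gene of 5 lists (x axis, n as marked), with a bar at each list's median and a dotted line at the median of all tested genes. The regulators and the other rapid-response genes have medians of 0.23, the relatives, partners and upstream regulators medians from -0.03 to -0.01, and the highest points belong to the other rapid-response genes.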

How the data were processed

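Ribosome-associated mRNA was measured by RNA-seq in 8 samples, grouped as CNO or vehicle by their labels. Per the labels and the methods, reads were trimmed (Trim Galore), aligned to GRCm38 (STAR) and assigned to genes (Salmon). The authors deposited estimated counts per gene, not normalized, of which 17.0% were not whole numbers, and TPM, the counts scaled by transcript length and depth. Other columns were gene names. The total per sample was 44064161 to 49413273 counts.

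Rounded estimated counts entered edgeR 4.0.16 (R 4.3.3). A gene was tested unless it had fewer than 10 counts in at least 4 samples. TMM factors scaled the libraries, the quasi-likelihood test compared the groups, and p-values were adjusted by Benjamini-Hochberg. The call required all of adjusted p under 0.05, more than a 1.5-fold difference and over 1 TPM on average. Unadjusted p-values are so named or given beside the adjusted one. Log2 values of single samples used a prior count of 2. Exact permutation (two-sided, 70 assignments) was used for single values and cannot give a p below 0.0286. The methods name edgeR's robust dispersion and a figure legend of the study a Wald test; robust dispersion with edgeR's likelihood ratio test, and a Wald test in DESeq2 1.42.0, were therefore run as well; other alternatives were limma 3.58.1 on log2(TPM + 1) and log2(TPM + 0.1), other normalizations and filters, covariates, a replicate block and the omission of each sample. Covariates were the split of replicates 1 and 2 from 3 and 4, the marker index (mean log2 CPM of the PV interneuron list minus that of the pyramidal cell list) and the endothelial and mural list. The procedure was tested on simulated data. Gene positions came from GENCODE M21 (GRCm38), which held 45143 of the 45706 identifiers, and promoter windows from RefSeq (GRCm38.p6). Plots were drawn with matplotlib 3.10.9.

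The 10 genes and all lists were chosen with earlier results of these data known. Genes named are the 10, the 3 with the smallest p in each related list, the 2 with the highest TPM of each marker list, and the 5 whose profile was nearest to Npas4. Partners, targets and other relatives of the 10 that are named beyond this rule, Cx3cr1 and Atf3 were added after their values were seen.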

Additional observations from a re-analysis of the deposited data

Results flagged for a closer look

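Of 36 sets of 4 samples examined for 1 sample that stands apart (the 10 genes, the 7 marker lists and the marker index, each in both groups), 1 was found, where chance gives about 1.8. The mean level of the list of other interneuron markers (Sst, Vip, Npy, Cck, Lamp5, Reln, Calb2 and Ndnf) was 4.16 log2 CPM in CNO 3 and 3.86 to 3.90 in the other 3 CNO samples, a gap of 0.865 of the group's range. None of the 10 regulators had such a sample in either group.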

How the results depend on the processing

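The 10 regulators had 0 calls under each of the 20 alternatives, with a lowest adjusted p of 0.472. In the main fit only Maff exceeded 1.5-fold, and its mean of 0.695 TPM was under 1. No regulator could therefore be called in that fit, whatever its p. Over all genes, where the quasi-likelihood test called 0, 12 were called with the robust dispersion, 10 with DESeq2, 4 with no filter on low counts, 1 with at least 10 counts in all samples and 3 with replicates 1 and 2 against 3 and 4 as covariate, and 0 to 2 when a sample was left out. The number at an unadjusted p under 0.05, 716, was 1126 with no filter and 1193 with that covariate, and 318 (without CNO 4) to 1683 (without CNO 2) when a sample was left out (396 without vehicle 1); among the 10 regulators it was 2 to 5, with Klf2 and Klf4 added without CNO 1. Btg2 turned to -0.10 with the robust dispersion and to -0.0222 and -0.0251 with limma on log2(TPM + 1) and log2(TPM + 0.1). In these limma fits the median of all tested genes was -0.0626 and -0.0773, in the same order. Ier5 turned to 0.11 with the marker index. When a sample was left out, the log2 fold change ranged from -0.0725 (without CNO 2) to 0.32 for Npas4, from -0.0038 to 0.30 for Ier2, from -0.10 to 0.0544 for Ier5 and from -0.20 to 0.23 for Btg2. It stayed positive for Trib1 (0.32 to 0.54, unadjusted p at most 0.0238), Maff (0.64 to 0.91, p at most 0.0517, above 0.05 without CNO 2 or vehicle 2) and Csrnp1 (0.37 to 0.59, p at most 0.0718, above 0.05 without CNO 4, vehicle 1 or vehicle 4). Klf4 reached unadjusted p = 0.0398 with the marker index, and Maff was 0.28 on log2(TPM + 1) and 0.60 on log2(TPM + 0.1). The cause of these shifts was not tested.

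Deviations of same-numbered samples from their group means had correlations over 15173 genes of -0.02, -0.14, 0.13 and 0.26. Among other pairs, CNO 2 with vehicle 1 reached 0.48. Such correlations cannot show whether same-numbered samples were handled together, and the labels give only replicate numbers. A replicate block gave 0 calls, and 765 genes and 3 regulators at an unadjusted p under 0.05, with no call changed. With the block, Npas4 had a log2 fold change of 0.09 (SE 0.13), against 0.15 (SE 0.28) without it. Maff and Klf4, at 16 to 71 counts, are the values that depth limits most.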
